A study of Mus musculus with 18 samples.

Results

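The expression of 10 autosomal genes that are known to be imprinted in the mouse and that act on embryonic growth was followed in cultured mouse embryonic fibroblasts (MEFs): Igf2, H19, Igf2r, Cdkn1c, Dlk1, Meg3, Peg3, Mest, Plagl1 and Grb10. They were chosen by name (in the table, for instance, Mest is ENSMUSG00000051855.15, Dlk1 ENSMUSG00000040856.17 and Grb10 ENSMUSG00000020176.17), as 10 of the 55401 gene identifiers in the deposited table of RNA-seq counts, and each matched 1 identifier. The counts came from 18 libraries of polyadenylated RNA in 6 groups of 3 libraries, and the groups fall into 2 genetic series. The S6K1 series held wild-type (WT) MEFs with an empty vector (EV), WT MEFs with a vector for constitutively active RAS, and S6K1 knockout (KO) MEFs with RAS. In the S6K1/S6K2 series the WT EV and WT RAS groups stood beside MEFs that lacked both S6K1 and S6K2 (double knockout, DKO) and carried RAS. Rps6kb1 encodes S6K1 and Rps6kb2 encodes S6K2, 2 kinases that phosphorylate ribosomal protein S6, and the comparisons addressed how RAS, and then the loss of these kinases under RAS, altered gene expression. All lines were primary cultures of C57BL/6 mid-gestation embryos from which head and viscera had been removed, and all had been transduced with a retroviral vector and kept under selection. WT and KO embryos of the S6K1 series were littermates, whereas WT lines of the S6K1/S6K2 series came from WT mothers of an earlier breeding, so that genotype and litter cannot be told apart in that series. Kinase loss without RAS was not analysed here.

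An imprinted gene is transcribed mainly from the copy inherited from 1 parent, as set by DNA methylation laid down in the germ line. Paternally expressed genes such as Igf2, Dlk1, Peg3, Mest and Plagl1 and maternally expressed genes such as H19, Igf2r, Cdkn1c, Meg3 and Grb10 are known for opposed effects on fetal growth, and many of them are highly expressed in the embryo and are turned down after birth. Several lie side by side and share control regions. By the RefSeq annotation of GRCm38.p6, Igf2 (chr7:142650768-142666816), H19 (chr7:142575530-142578146) and Cdkn1c (chr7:143458339-143461059) lie at the end of chromosome 7, Peg3 (chr7:6703892-6730462) at its other end, and Dlk1 (chr12:109452485-109463336) beside Meg3 (chr12:109540996-109571729). Igf2r (chr17:12682406-12769706), Mest (chr6:30733506-30748466), Plagl1 (chr10:13090832-13131694) and Grb10 (chr11:11930499-12037428) stand in imprinted domains of their own. The MEFs were of an inbred strain and the reads were not assigned to parental copies, so that levels below are sums over both alleles and the imprint itself was not measured.

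Levels are in CPM (the count of a gene relative to the total count of its library, after TMM scaling among the 9 libraries of a series). The total count per library lay between 8319445 and 14402442. The targeted gene Rps6kb1 was at 23.6, 31.3 and 37.0 CPM in KO RAS against 61.6, 70.9 and 74.6 CPM in WT RAS of its series, and at 34.5, 39.7 and 38.2 CPM in DKO RAS against 75.5 to 83.7 CPM in WT RAS. Its log2 fold change in KO was -1.17 with adjusted p = 0.234 without and 0.000101 with the replicate number as a block, and in DKO -1.11 with adjusted p = 0.00908. Rps6kb2 was at 2.68, 3.04 and 2.80 CPM in DKO RAS and between 24.1 and 28.9 CPM in WT RAS of that series. Hras was higher with RAS in both series (log2 fold change 0.93 and 0.75), although reads of the introduced RAS and of the endogenous gene could not be told apart. The summed level of 12 fibroblast markers was between 24394 and 54867 CPM in all 18 libraries, and 7 of 10 muscle markers, Myod1 and Myog among them, were at or under 3 counts in every library. The summed level of 12 macrophage markers differed between cultures of the same group. In the S6K1 series it reached 2635, 2095 and 541 CPM for WT EV, 3083, 2913 and 640 CPM for WT RAS and 725, 611 and 218 CPM for KO RAS. For the S6K1/S6K2 series the sums were 1153, 134 and 170.1 CPM for WT EV, 876, 168 and 230.2 CPM for WT RAS and 204, 69.4 and 90.7 CPM for DKO RAS. In the genes described here 1 library stood apart, since WT EV replicate 1 of the S6K1/S6K2 series had the highest level among the 18 libraries of Dlk1, Mest, Cdkn1c and Plagl1 and the lowest of Igf2r and Peg3. The RAS effects of Mest, Dlk1, Cdkn1c, Igf2r, Peg3 and Plagl1 in that series are given with and without it.

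All 10 genes were detected in every library, with the lowest count (118 for Igf2 in WT RAS replicate 1 of the S6K1 series) well above the floor of 3 counts. H19, the long non-coding RNA of the Igf2 locus, had the highest level per length in all 6 groups. Its mean was 560 CPM per kb of exon in WT EV of the S6K1 series and 1748 CPM per kb in WT EV of the S6K1/S6K2 series, and in DKO RAS replicate 3 it held 0.788% of all counts and ranked 4 among all genes of that library. Igf2, the fetal growth factor that shares its enhancers with H19, stood at 7.08 and 9.47 CPM per kb in the same 2 groups, the lowest of the 10 genes in each. Igf2r, the receptor that takes up IGF2 and routes it to lysosomes, was at 130 and 92.1 CPM per kb, and Grb10, an adaptor protein that dampens signals of the insulin and IGF1 receptors, at 111 and 100.4 CPM per kb. The ratio of H19 to Igf2 counts was between 18.5 and 169 over the 18 libraries. Scaling all 18 libraries together changed the 60 group means by between -2.57% and 2.84%, so that levels of the 2 series could be set side by side. In the order of the 6 group means of each gene, the ranges of 46 of 50 neighbouring groups overlapped, and the exceptions were 1 step each in H19, Dlk1, Mest and Grb10. However, the series were separate experiments and any batch and the series cannot be told apart.

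**Figure D1:**
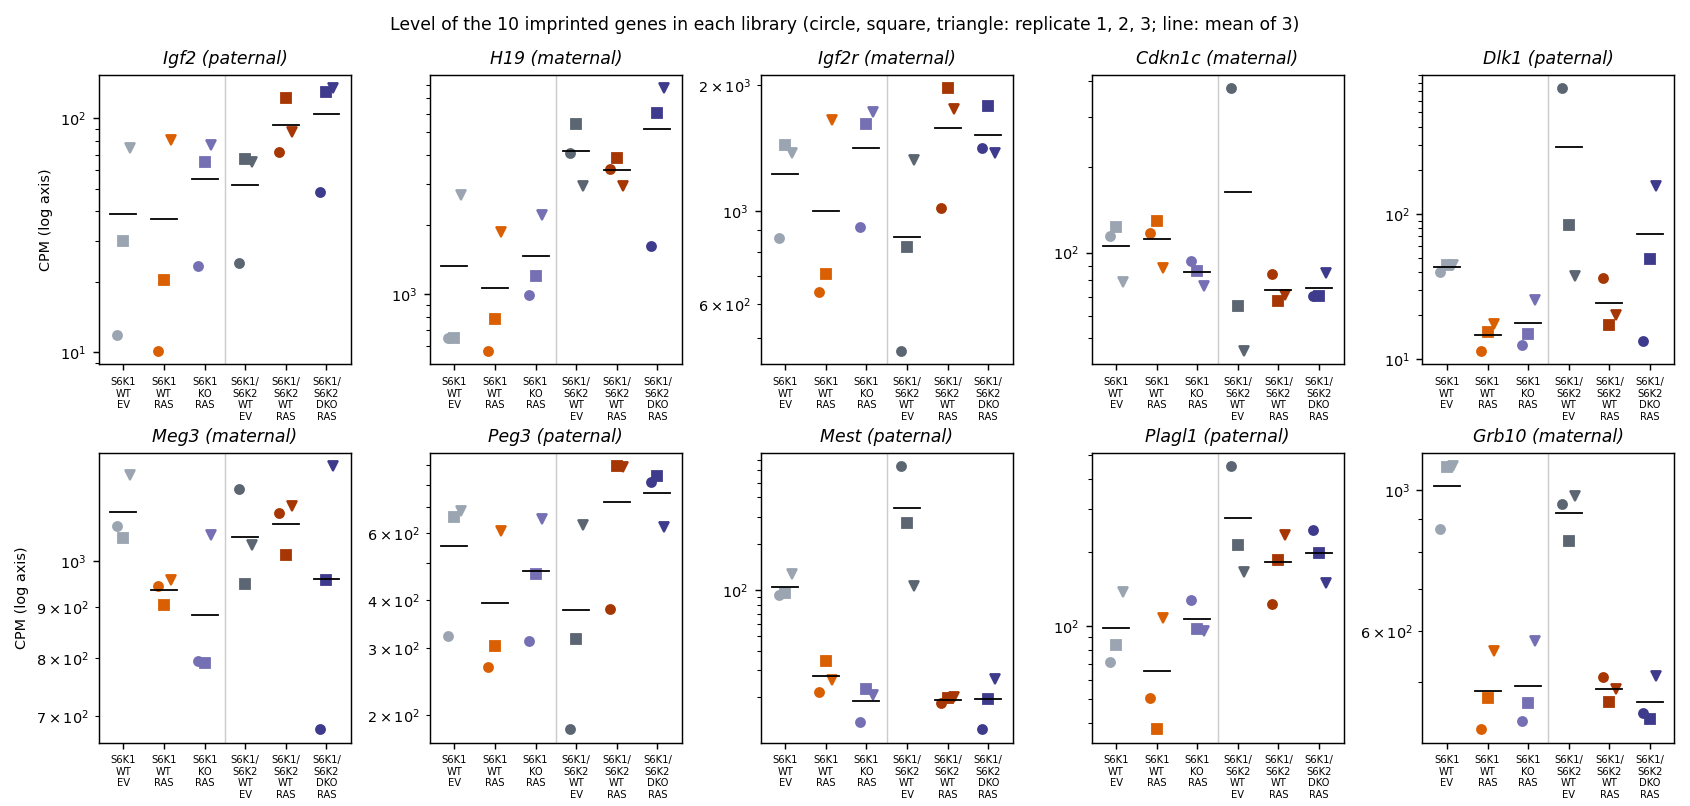
Level of each gene in every library, in CPM on a log axis, with the S6K1 series left of the grey line and the S6K1/S6K2 series right of it. Points are libraries, lines are means of 3, and the word beside each name is the allele known to be expressed. Mest and Grb10 stand lower in every RAS library than in every EV library, and WT EV replicate 1 of the S6K1/S6K2 series is the highest point of Dlk1, Mest, Cdkn1c and Plagl1.

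Mest, Dlk1 and Grb10, 3 of the 10 genes, fell with RAS in both series in the fit with group as the only term, in which no gene of the set passed as higher. With other fits of the S6K1/S6K2 series the call of Dlk1 was lost, or Igf2, Igf2r or Peg3 passed as higher, and those values are given with each gene. Mest encodes an enzyme-like protein of the alpha/beta hydrolase fold that is abundant in embryonic mesoderm. Its level was 93.0, 95.5 and 126 CPM in WT EV and 21.6, 34.4 and 25.8 CPM in WT RAS of the S6K1 series. The S6K1/S6K2 series had 642, 272.5 and 106 CPM in WT EV and 18.2, 19.6 and 19.9 CPM in WT RAS. The groups did not overlap in either series, and the RAS libraries were far closer to each other than the EV libraries of the S6K1/S6K2 series. Mest was 3.84-fold lower with RAS in the S6K1 series (adjusted p = 0.000948 by edgeR's quasi-likelihood test with Benjamini-Hochberg adjustment, log2 fold change -1.94 with SE 0.23) and 17.7-fold lower in the S6K1/S6K2 series (-4.14, SE 0.58, adjusted p = 0.00127). Without WT EV replicate 1 the log2 fold change in the latter was -3.30, and the call held in 6 of 6 fits that left out 1 library.

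Dlk1 is a membrane protein related to the Notch ligands that holds back the differentiation of adipocyte precursors. Its level was 40.2, 44.6 and 44.2 CPM in WT EV and 11.4, 15.3 and 17.4 CPM in WT RAS of the S6K1 series, 2.92-fold lower with RAS (adjusted p = 0.00503 by edgeR, log2 fold change -1.55 with SE 0.26). Dlk1 of the S6K1/S6K2 series was at 739.9, 83.5 and 37.3 CPM in WT EV and at 36.1, 17.3 and 20.0 CPM in WT RAS. The groups did not overlap there, but the 3 EV lines spanned a wide range, and the lowest EV library was only slightly above the highest RAS library. The fitted log2 fold change was -3.55 (SE 1.15, adjusted p = 0.0461), and it was -1.31 with adjusted p = 0.260 without WT EV replicate 1. With the line number as a block it was -3.08 with adjusted p = 0.0886, and without WT RAS replicate 1, 2 or 3 the adjusted p was 0.0809, 0.145 or 0.134. With the line as a block in a fit of the 6 WT libraries alone, chosen after seeing the data, the adjusted p was 0.0344. The call of Dlk1 in the S6K1/S6K2 series was thus lost without any 1 of these 4 libraries.

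Grb10 had the narrowest spread of the 3. Its level was 869, 1088 and 1092 CPM in WT EV and 420.5, 472 and 559 CPM in WT RAS of the S6K1 series, and 950.2, 831 and 979.9 CPM and 508, 464 and 486 CPM in the S6K1/S6K2 series. The groups were apart in both series, and the ranges of the 2 series overlapped in EV and in RAS. Grb10 was 2.10-fold lower with RAS in the S6K1 series (adjusted p = 0.00305 by edgeR, log2 fold change -1.07 with SE 0.17) and 1.89-fold lower in the S6K1/S6K2 series (-0.92, SE 0.13, adjusted p = 0.00132). It was called in all fits that left out 1 library in both series.

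Over all genes, 13.2% of 14036 passed the test in the S6K1 series and 26.3% of 13881 in the S6K1/S6K2 series, and 6.09% and 12.7% passed as lower. Of the 10 imprinted genes, 3 passed in each series, all lower. The median log2 fold change of the 10 was -0.41 and -0.44, beside 0.00 and -0.02 over all genes tested. Of the 5 paternally expressed genes 2 fell in each series (Dlk1 and Mest), and of the 5 maternally expressed genes 1 fell (Grb10). Groups did not overlap for 4 of 10 genes in each series, beside 30.9% and 42.5% of all genes. Beside the fall of Mest, Dlk1 and Grb10, the summed level of the 12 fibroblast markers was also lower with RAS, at 44432 to 54867 CPM in WT EV and 24584 to 36272 CPM in WT RAS of the S6K1 series and at 44915 to 52546 CPM and 26591 to 30158 CPM in the other series. Over the 18 libraries Pearson's r with the log2 of that sum was 0.94 for Grb10, 0.83 for Mest and 0.49 for Dlk1, and after subtraction of group means 0.75, 0.36 and 0.31. Of the 12 fibroblast markers 4 and 5 passed as lower and 1 and 0 as higher. Markers of other cell types moved as well: the summed level of 6 epithelial markers was 5.0 to 10.3 CPM in WT EV and 121 to 157 CPM in WT RAS of the S6K1 series and 0.6 to 4.3 CPM and 99.8 to 136 CPM in the other, that of 6 neural markers was 56.4 to 66.0 and 10.3 to 19.6 CPM and 71.6 to 100.5 and 16.5 to 25.9 CPM, that of 10 muscle markers was 17.2 to 25.1 and 38.7 to 49.99 CPM and 4.5 to 17.7 and 23.2 to 38.9 CPM, and that of 6 cartilage markers was 54.0 to 94.3 CPM in WT EV of the S6K1/S6K2 series and 17.7 to 27.9 CPM in all other groups. Within the neural list 3 markers were tested, of which 2 passed as lower in the S6K1 series and 1 as lower and 1 as higher in the other, and of 2 muscle markers tested 1 passed as higher in each series. The part of these markers in the results was not tested, and in bulk libraries fewer cells of a type and less RNA per cell cannot be told apart.

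**Figure D2:**
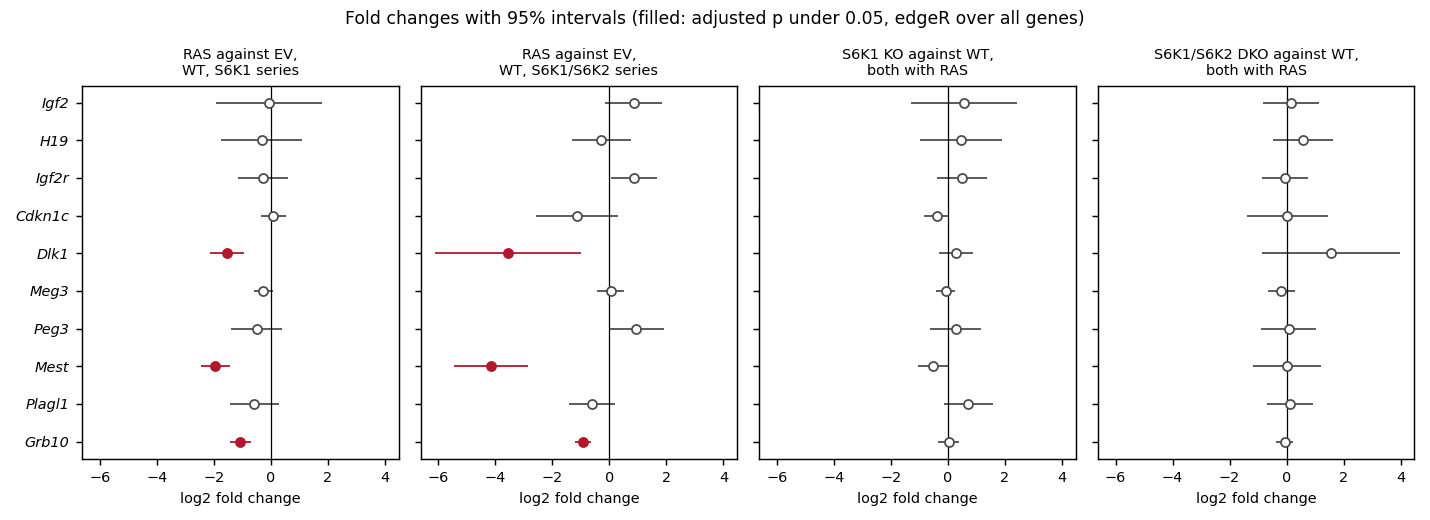
Fitted log2 fold change of each gene (points) with its 95% interval (bars) in the 4 comparisons, filled red where the adjusted p over all genes was under 0.05. Mest, Dlk1 and Grb10 are the only filled points, all at values below 0 in the comparisons of RAS with EV, and every interval of the DKO comparison holds 0, as do those of the KO comparison other than Mest, which ends at -0.0026.

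The 250 bases upstream of an annotated promoter start are shown for these 3 genes, since they were the members that fell in both series. RefSeq (GRCm38.p6) gave promoters for 8 of the 10 genes, with 15 starts in all. The counts do not separate starts, and where a gene has more than 1, as Mest and Grb10 do, the start farthest upstream was taken. The windows are chr6:30733256-30733505 on the plus strand for Mest, chr12:109452573-109452822 on the plus strand for Dlk1 and chr11:12037421-12037670 on the minus strand for Grb10, each written 5′ to 3′. The Dlk1 window lies inside the gene span given above, and the Grb10 window overlaps the edge of its span. Neither is thus wholly upstream of the gene as annotated. Capitals mark a G-run followed by a C-run (GGGGCCC, as bound by PLAGL1-type zinc fingers) or a GC box (GGGCGG), on either strand, and run on where matches touch or overlap.
Mest: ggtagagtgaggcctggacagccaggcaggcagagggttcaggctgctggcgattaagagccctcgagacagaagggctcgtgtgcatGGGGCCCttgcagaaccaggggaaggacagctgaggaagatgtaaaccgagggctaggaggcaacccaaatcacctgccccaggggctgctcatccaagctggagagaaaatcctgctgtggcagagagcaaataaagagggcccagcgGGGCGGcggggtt
Dlk1: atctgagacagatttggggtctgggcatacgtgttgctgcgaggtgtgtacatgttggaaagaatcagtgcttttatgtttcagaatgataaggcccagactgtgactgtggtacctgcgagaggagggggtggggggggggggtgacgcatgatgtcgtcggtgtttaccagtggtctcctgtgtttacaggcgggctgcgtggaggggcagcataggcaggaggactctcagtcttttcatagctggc
Grb10: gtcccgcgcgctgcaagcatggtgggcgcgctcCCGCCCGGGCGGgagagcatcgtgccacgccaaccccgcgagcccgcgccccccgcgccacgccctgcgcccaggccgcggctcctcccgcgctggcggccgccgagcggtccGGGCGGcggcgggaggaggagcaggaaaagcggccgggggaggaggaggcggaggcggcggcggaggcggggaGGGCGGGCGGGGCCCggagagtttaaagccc

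The 3 sequences differ in base composition. That of Grb10 held 40 CpG dinucleotides and 81.2% G and C, and 98.7% of the 32851 mouse promoter windows had fewer CpG. Those of Dlk1 and Mest held 8 and 7 CpG, near the median of 6 over all windows. The G-run followed by a C-run was found once in Mest, 162 bases before the start, once in Grb10, 23 bases before the start, and not in Dlk1, and 5.69% of all windows hold it. GC boxes were found 5 times in Grb10, once in Mest, 13 bases before the start, and not in Dlk1, beside 32.7% of all windows. Also searched on both strands were the TATA box with the letters TATAAA, held by 12.4% of windows, the box named by its letters CCAAT, held by 33.8%, the AP-1 site with the letters TGANTCA, held by 6.75%, and the E-box with the letters CACGTG, held by 6.02%. None of these was in the 3 windows shown. Other starts of the same genes differed. The windows of Mest starts 2 and 3 each held 14 CpG, 1 GC box and no GGGGCCC, and 70.6% of all windows had fewer CpG. That of Grb10 start 2 held 8 CpG and none of the motifs searched. Among the other members, the window of Peg3 held GGGGCCC on both strands at overlapping positions, and that of Igf2r, whose level is described next, held 2 E-boxes and 3 GC boxes.

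Igf2, H19, Igf2r and Cdkn1c, which supply, clear or oppose IGF2-driven growth, did not pass edgeR's test with RAS in the fit with group as the only term. Igf2 was at 11.8, 30.0 and 74.9 CPM in WT EV and at 10.1, 20.4 and 81.1 CPM in WT RAS of the S6K1 series. The lines differed widely within a group while each kept its place in the order, and the log2 fold change was -0.06 (95% interval -1.92 to 1.81, adjusted p = 0.975, edgeR). Igf2 of the S6K1/S6K2 series was at 24.0, 66.8 and 65.3 CPM in WT EV and at 72.1, 123 and 87.1 CPM in WT RAS. All RAS libraries were above all EV libraries there. WT EV replicate 1 was the lowest, and the EV libraries at 66.8 and 65.3 CPM were only slightly below the lowest RAS library. Igf2 passed in 0 of 6 fits that left out 1 library (0.50 to 1.08, adjusted p = 0.143 to 0.423 by edgeR). The log2 fold change of 0.85 (SE 0.44) did not pass in the fit without the block (adjusted p = 0.181) and passed with the line number as a block (0.98, adjusted p = 0.0163). That block also tied each DKO library to the WT libraries of its number, which the labels do not pair, but with the line as a block in the 6 WT libraries alone Igf2 passed as well (0.97, adjusted p = 0.0250). Igf2r was at 862, 1436 and 1373 CPM in WT EV and 641, 710 and 1651 CPM in WT RAS of the S6K1 series (adjusted p = 0.685, log2 fold change -0.29 with SE 0.39). Igf2r stood at 464, 823 and 1320.4 CPM and at 1016, 1968 and 1748 CPM in the S6K1/S6K2 series, higher with RAS in 3 of 3 lines (0.86, SE 0.36, adjusted p = 0.105, and 0.90 with adjusted p = 0.0466 with the block). Igf2r also passed with DESeq2 (0.88, adjusted p = 0.0409), with the line as a block in the 6 WT libraries (0.95, adjusted p = 0.0260) and without WT EV replicate 3 (1.31, adjusted p = 0.0190). Without WT EV replicate 1 it was at 0.55 with adjusted p = 0.224, so that the call depended on the fit. Airn, the non-coding RNA that runs antisense through Igf2r from the other parental copy, rose in the S6K1/S6K2 series (adjusted p = 0.0198, log2 fold change 1.03 with SE 0.27) and was at 0.62 (adjusted p = 0.226) in the S6K1 series. Since the strand setting of the counting is not given in the sources used here, reads of Igf2r and Airn where they overlap could not be told apart. With the block, 36.2% of all genes passed in the S6K1 series and 28.7% in the S6K1/S6K2 series, beside 4 of 10 members in each.

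H19 was at 648, 649 and 2688 CPM in WT EV and at 570, 785 and 1851 CPM in WT RAS of the S6K1 series (adjusted p = 0.795 by edgeR, log2 fold change -0.31 with SE 0.63). H19 of the S6K1/S6K2 series was at 4054, 5437 and 2945 CPM in WT EV and at 3474.5, 3867 and 2922 CPM in WT RAS (-0.28, SE 0.47, adjusted p = 0.691). The H19 level of every WT library of the S6K1/S6K2 series was above that of every WT library of the S6K1 series. Cdkn1c, which encodes a cyclin-dependent kinase inhibitor, stayed between 78.8 and 129 CPM in WT EV and WT RAS of the S6K1 series (log2 fold change 0.08, 95% interval -0.36 to 0.52). Cdkn1c of the S6K1/S6K2 series stood at 379.5, 64.7 and 45.0 CPM in WT EV and at 83.9, 67.5 and 70.8 CPM in WT RAS, and the fitted log2 value of -1.14 (SE 0.64) had an adjusted p of 0.214. Without WT EV replicate 1 that value was 0.43 with adjusted p = 0.123, so that its sign rested on 1 library, and with no filter on low counts it passed as lower (adjusted p = 0.0320).

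Peg3, a zinc-finger protein known for its role in maternal behaviour and cell survival, was at 322, 660 and 683 CPM in WT EV and at 267, 304 and 608 CPM in WT RAS of the S6K1 series, lower with RAS in 3 of 3 lines. Peg3 of the S6K1/S6K2 series stood at 184, 317 and 627 CPM in WT EV and at 379, 897 and 894 CPM in WT RAS, higher with RAS in 3 of 3 lines. Groups overlapped in both series. The log2 fold changes were -0.50 (SE 0.40, adjusted p = 0.476, edgeR) and 0.94 (SE 0.44, adjusted p = 0.136), and with the line number as a block -0.52 with adjusted p = 0.0269 and 0.98 with adjusted p = 0.0843. With the line as a block in the 6 WT libraries the directions stayed the same. The S6K1 series no longer passed (-0.51, adjusted p = 0.0752), and the S6K1/S6K2 series passed (1.03, adjusted p = 0.0185). Peg3 passed in the S6K1/S6K2 series without WT EV replicate 3 (1.55, adjusted p = 0.0189) and was at 0.61 with adjusted p = 0.295 without WT EV replicate 1. Usp29, which starts beside Peg3 in the opposite direction, rose in the S6K1/S6K2 series (1.52, SE 0.43, adjusted p = 0.0276) and was at 0.46 (SE 0.41, adjusted p = 0.528) in the S6K1 series. Plagl1, a zinc-finger transcription factor of the imprinted network, was at 70.9, 83.7 and 138 CPM in WT EV and at 50.6, 37.7 and 108 CPM in WT RAS of the S6K1 series, and at 450.4, 215 and 167 CPM and 122, 186 and 236 CPM in the other. Its log2 fold changes of -0.58 (SE 0.38) and -0.61 (SE 0.37) did not pass (adjusted p = 0.385 and 0.246). In the S6K1 series Plagl1 passed as lower with the line as a block in the 6 WT libraries (-0.65, adjusted p = 0.0203) and in 1 of 6 fits that left out 1 library (adjusted p = 0.0376, without WT RAS replicate 3), and in the S6K1/S6K2 series it was at -0.07 without WT EV replicate 1. Meg3, the non-coding RNA downstream of Dlk1, had the narrowest range of the 10 genes over the 18 libraries, 1.83-fold from lowest to highest. Its level was 1083, 1054 and 1218 CPM in WT EV and 945, 904 and 958 CPM in WT RAS of the S6K1 series, where the groups did not overlap but the test did not pass (log2 fold change -0.26, SE 0.14, adjusted p = 0.289), and its value was 0.04 (95% interval -0.42 to 0.51) in the S6K1/S6K2 series. The ratio of Meg3 to Dlk1 counts was 23.6 to 27.5 in WT EV and 54.9 to 83.2 in WT RAS of the S6K1 series, and 1.59, 11.4 and 27.8 in WT EV and 30.9, 58.7 and 56.6 in WT RAS of the S6K1/S6K2 series.

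**Figure D3:**
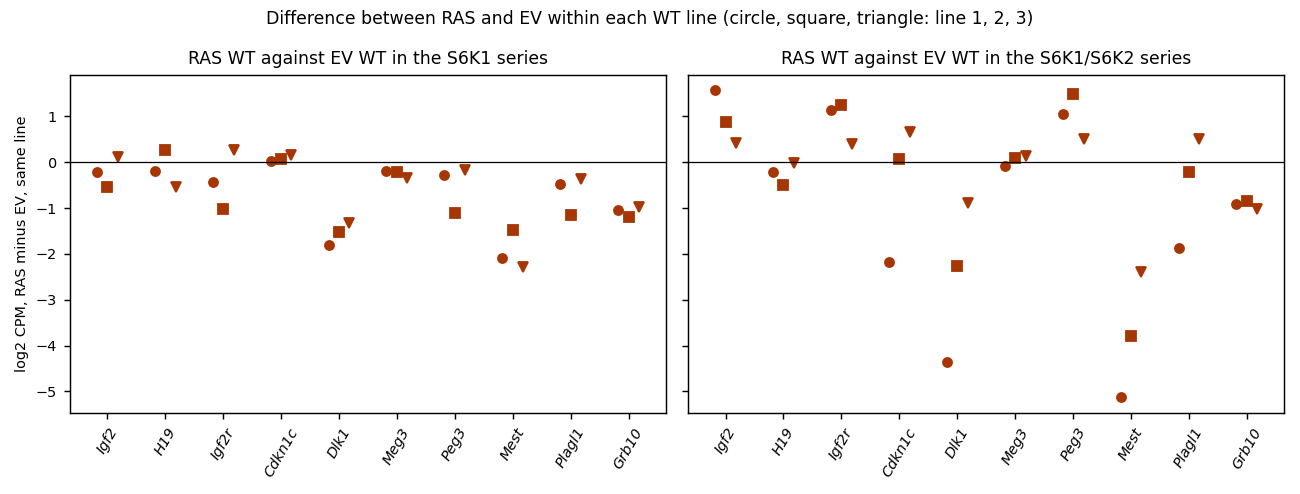
Difference in log2 CPM between RAS and EV within each WT line (points, 3 lines a series) for the 10 genes, with 0 marked by a line. Mest, Dlk1 and Grb10 are below 0 in all 6 lines, and Peg3 is below 0 in the 3 lines of the S6K1 series and above 0 in the 3 lines of the S6K1/S6K2 series.

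The RAS effects of the 2 series were compared directly in a fit over all 18 libraries. No gene of the 10, and 0 of 14483 genes (0.0%), passed with edgeR, although 12.6% of all genes and 2 of the 10 had an unadjusted p under 0.05. These were Mest, whose fall was larger in the S6K1/S6K2 series by 2.21 on the log2 scale (SE 0.63, adjusted p = 0.230) and by 1.37 without WT EV replicate 1 of that series, and Peg3 (1.44, SE 0.64, adjusted p = 0.384). DESeq2 called Mest (adjusted p = 0.0419) among 143 genes.

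Loss of the kinases under RAS was followed by no change that passed the test in any of the 10 genes. In the S6K1 series 1 of 14036 genes passed (0.00712%) and in the S6K1/S6K2 series 3 of 13881 (0.0216%), and DESeq2 and the fits with the block called 0 of the 10 as well. Without the block, 1 of the 10 genes in KO (6.86% of all genes) and 0 in DKO (1.29%) had an unadjusted p under 0.05. With the block, edgeR's unadjusted p in KO was 0.0028 for Cdkn1c, 0.0071 for Mest, 0.0076 for Igf2 and 0.011 for Plagl1. It was 0.012 for H19, 0.021 for Igf2r and between 0.084 and 0.79 for Peg3, Dlk1, Meg3 and Grb10. The lowest in DKO was 0.15 (Dlk1), and the lowest adjusted p in KO was 0.0615 (Cdkn1c). The share of all genes under 0.05 in those fits is not given here. Mest was at 13.8, 22.5 and 20.5 CPM in KO RAS, lower than the WT RAS library of the same number in 3 of 3 (log2 fold change -0.52, 95% interval -1.04 to -0.0026, adjusted p = 0.726, edgeR), and at 12.3, 19.5 and 26.4 CPM in DKO RAS (0.01, -1.19 to 1.22). Grb10 was at 433, 462 and 579 CPM in KO RAS (0.02, 95% interval -0.35 to 0.39) and at 446, 436 and 509 CPM in DKO RAS (-0.07, -0.36 to 0.22). The intervals of Grb10 were thus the narrowest of the 10 in the KO and DKO comparisons, apart from that of Meg3 in KO.

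The intervals of Igf2, H19 and Dlk1 were wider than those of Grb10. Igf2 was at 23.4, 64.8 and 77.3 CPM in KO RAS (log2 fold change 0.57, 95% interval -1.29 to 2.43) and at 48.4, 129.5 and 135.5 CPM in DKO RAS (0.15, -0.82 to 1.13). H19 was at 996, 1203 and 2203 CPM in KO RAS (0.46, -0.97 to 1.88) and at 1612, 6025 and 7774 CPM in DKO RAS (0.59, -0.46 to 1.63). Dlk1 was at 12.6, 14.9 and 25.7 CPM in KO RAS (0.27, -0.33 to 0.86) and at 13.4, 48.7 and 155 CPM in DKO RAS (1.57, -0.85 to 3.98). In DKO RAS the order of the 3 lines was the same for Igf2, H19, Dlk1, Meg3 and Mest, with line 1 lowest and line 3 highest. Igf2r was at 916, 1608 and 1721 CPM in KO RAS (0.50, -0.38 to 1.38), and Plagl1 at 128, 96.7 and 95.1 CPM (0.71, -0.16 to 1.57). Meg3 was at 794, 792 and 1062 CPM in KO RAS (-0.08, -0.40 to 0.23) and at 679, 957 and 1243 CPM in DKO RAS (-0.18, -0.65 to 0.29). Peg3 was at 313, 467 and 650.0 CPM in KO RAS (0.28, -0.62 to 1.17) and at 815, 845 and 621 CPM in DKO RAS (0.07, -0.89 to 1.04). Igf2r, Plagl1 and Cdkn1c of DKO RAS had log2 fold changes of -0.05 (-0.85 to 0.75), 0.12 (-0.70 to 0.94) and 0.02 (-1.40 to 1.45). Cdkn1c was at 93.2, 86.1 and 76.0 CPM in KO RAS, lower than the WT RAS library of the same number in 3 of 3 (-0.39, -0.83 to 0.05, adjusted p = 0.835). In the other direction, H19, Igf2r and Peg3 were each higher in KO RAS than in the WT RAS library of the same number in 3 of 3. The summed macrophage markers were lower in every KO and DKO library than in the WT RAS library of the same number, 12 of 12 markers had log2 fold changes below 0 in each comparison, and 0 of 12 passed edgeR's test without the block. With the block 12 of 12 passed in KO and 1 in DKO, and the numbers of all genes called with it are given in the section on processing. In the fit without the block 12 and 2 had an unadjusted p under 0.05, beside 6.86% and 1.29% of all genes. The part of the macrophage markers in these values was not tested. The difference of the 2 loss effects was called for 1 of 14483 genes (0.0069%), Rps6kb2, and for none of the 10, of which 0 had an unadjusted p under 0.05 (1.23% of all genes) and DESeq2 called 0.

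The 10 genes differed in how much lines of the same group varied. The pooled SD of log2 CPM within groups was 1.21 for Dlk1, 1.04 for Igf2 and 0.84 for H19, and 98.9%, 98.1% and 96.2% of 13550 genes had a smaller one. It was 0.70 for Cdkn1c, 0.63 for Peg3, 0.62 for Mest and 0.55 for Igf2r and Plagl1, beside a median of 0.27 over all genes. Meg3 (0.22) and Grb10 (0.16) were below that median. The gap between lines was seen with and without RAS: in the S6K1 series line 3 had the highest Igf2, H19, Peg3 and Plagl1 in both WT EV and WT RAS, and line 1 the lowest Igf2.

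Over the 18 libraries some members rose and fell together. Pearson's r of log2 CPM was 0.94 for Igf2r and Peg3, 0.86 for Mest and Grb10, 0.80 for Igf2 and H19, 0.76 for Igf2 and Igf2r, 0.75 for Dlk1 and Mest and 0.61 for Dlk1 and Meg3. The lowest values were -0.70 for Igf2r and Cdkn1c and -0.68 for Cdkn1c and Peg3. After subtraction of group means Igf2r and Peg3 stayed at 0.96 and Igf2 and H19 at 0.79, whereas Mest and Grb10 were at 0.16, and Dlk1 and Mest rose to 0.86. These are descriptions over libraries that share lines, groups and scaling. Across 10734 genes with a mean of at least 5 CPM, the pattern closest to that of Mest was found in Ebf1 and Gli3 (r 0.97 each), to that of Grb10 in Antxr1 and Adamts5 (0.99 and 0.98), and to that of Plagl1 in Lhx2 and Hoxa13 (0.96 and 0.94). Closest to Igf2 were Prpf40b and Ptpdc1 (0.95 and 0.94), to Igf2r Nisch and Vps13c (0.96 each), to Peg3 Igf2r and Nisch (0.94 and 0.92), to Cdkn1c Celf2 and Insig1 (0.93 and 0.90), to Dlk1 Maz and Cnksr3 (0.93 and 0.92) and to Meg3 Uimc1 and Aptx (0.81 and 0.79).

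**Figure D4:**
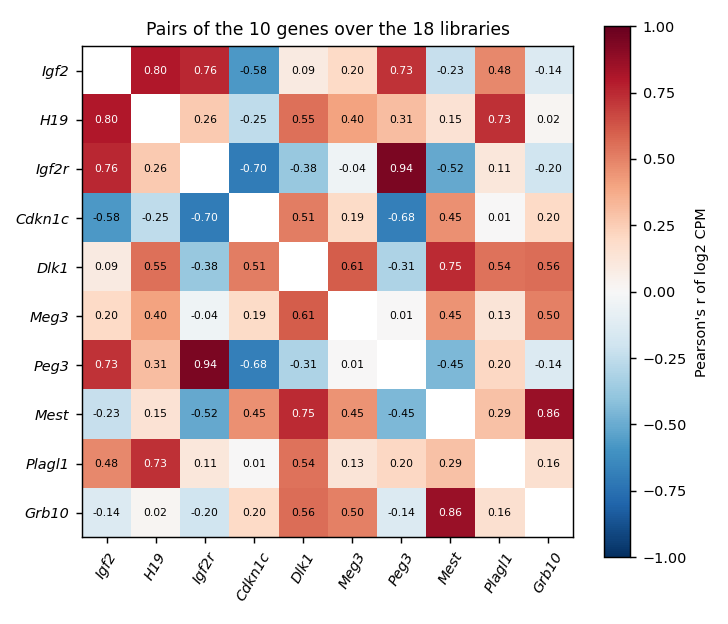
Pearson's r of log2 CPM for each pair of the 10 genes over the 18 libraries (colour scale from -1 to 1). The deepest red is Igf2r with Peg3 at 0.94, and the deepest blue is Igf2r with Cdkn1c at -0.70.

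Igf2, H19, Igf2r, Peg3 and, before the subtraction of group means, Plagl1 ran against the macrophage markers. With the log2 of their summed level r over the 18 libraries was -0.85 for Igf2, -0.82 for H19, -0.63 for Peg3 -0.62 for Plagl1 and -0.60 for Igf2r, and 0.62 for Cdkn1c. After subtraction of group means the values were -0.84, -0.65, -0.80, -0.14, -0.82 and 0.72 in that order. For Mest, Grb10, Dlk1 and Meg3 r was 0.18, 0.17, -0.15 and -0.02, and after subtraction 0.20, -0.36, 0.26 and -0.21. In the S6K1 series lines 1 and 2, with 2095 to 3083 CPM of macrophage markers in WT EV and WT RAS, had 10.1 to 30.0 CPM of Igf2, and line 3, with 541 and 640 CPM, had 74.9 and 81.1 CPM. The part of other cell types in these levels was not tested.

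**Figure D5:**
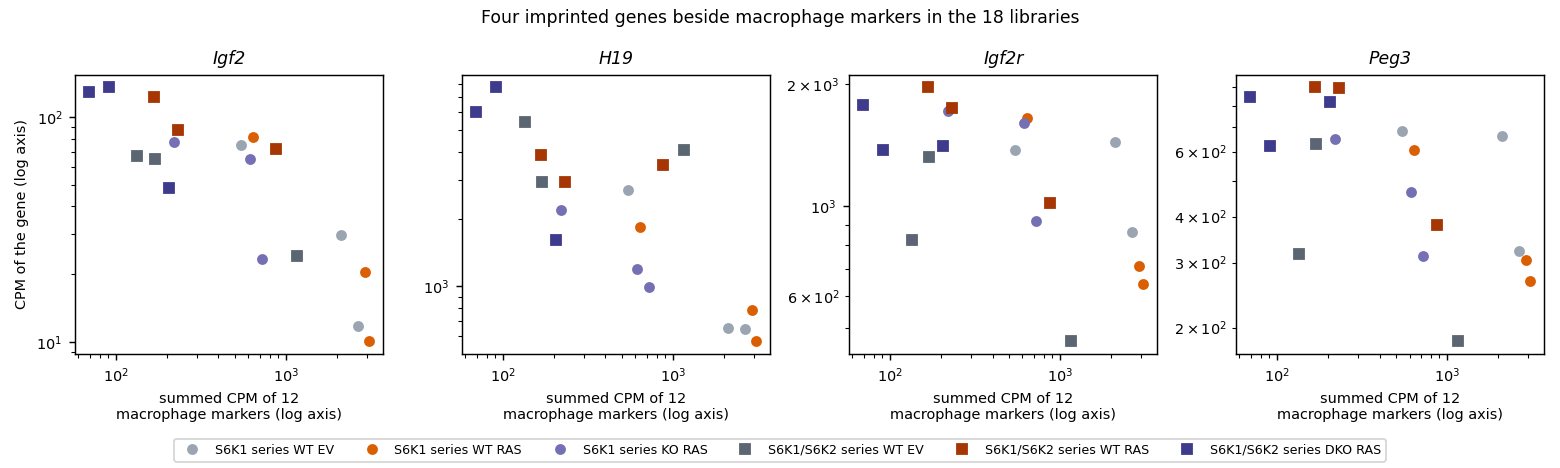
Level of Igf2, H19, Igf2r and Peg3 against the summed level of 12 macrophage markers in each of the 18 libraries, both in CPM on log axes (circles, S6K1 series, squares, S6K1/S6K2 series). The 4 libraries with the highest macrophage sums, 2095 to 3083 CPM, hold 10.1 to 30.0 CPM of Igf2 and 570 to 785 CPM of H19.

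Other imprinted genes moved in both directions with RAS. Of 46 listed, 31 were tested in the S6K1 series, where 4 rose and 2 fell, and 32 in the S6K1/S6K2 series, where 7 rose and 4 fell, with median log2 fold changes of 0.05 and 0.07. These are 6 of 31 and 11 of 32, beside 13.2% and 26.3% of all genes, and with the block 6 rose and 6 fell in the S6K1 series and 7 and 3 in the other. Kcnq1, a potassium channel gene of the Cdkn1c domain, had 0 counts in all 6 WT EV libraries and was at 1.04 to 1.64 CPM in WT RAS of the S6K1 series, at least 5.96-fold higher (against 3 counts per library), and at 7.02, 2.02 and 0.834 CPM in WT RAS of the other. Rasgrf1, a paternally expressed RAS exchange factor, was at least 11.7-fold higher in the S6K1 series and rose by 3.88 on the log2 scale in the other. Tfpi2, a serine protease inhibitor, rose from 11.2 to 47.3 CPM in WT EV to 260 to 514 CPM in WT RAS of the S6K1 series (adjusted p = 0.00151, log2 fold change 3.88 with SE 0.51) and by 6.43 in the other. Nap1l5 fell in both series, by 2.59 and 1.77 on the log2 scale. Dio3, the thyroid hormone-inactivating deiodinase at the far end of the Dlk1-Meg3 domain, fell by 1.64 in the S6K1/S6K2 series (adjusted p = 0.0458), at levels of 0.238 to 1.95 CPM in the 6 WT libraries.

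Among genes that write or guard imprints and partners of IGF2, the number called depended on the fit. Over all genes, 13.2% passed in the S6K1 series and 26.3% in the S6K1/S6K2 series, and 36.2% and 28.7% with the block. The counts of both lists stand beside these shares. Of 18 genes of imprint maintenance (DNA methyltransferases, TET enzymes, zinc-finger proteins and cohesin), 1 fell in the S6K1 series (Smc1a) and 5 fell and 1 rose in the S6K1/S6K2 series. With the block 7 fell in the S6K1 series, where 36.2% of all genes passed, and 6 fell and 1 rose in the other. In the S6K1/S6K2 series Tet1 (-1.38), Dnmt3b (-1.28) and Dnmt3a (-0.83) were lower on the log2 scale, and Zfp57, which protects imprints in the early embryo, was higher (0.69, SE 0.11, adjusted p = 0.00189). Of 17 genes of the IGF axis, 2 fell in the S6K1 series, Igfbp5 (-2.29) and Igfbp7 (-1.02), both binding proteins. In the S6K1/S6K2 series 4 fell, among them Igfbp5 (-2.87), Igfbp2 (-2.83) and Igf1 (-1.26), and 3 rose, Stc2 (1.13), Insr (0.78) and Igf1r (0.64). With the block 6 fell in the S6K1 series, and 3 fell and 4 rose in the other. Of 14 proliferation genes 2 and 9 fell and 0 rose, beside 6.09% and 12.7% of all genes that passed as lower, with median log2 fold changes of -0.42 and -1.18, and 5 fell in each series with the block.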

How the data were processed

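The deposited file is 1 table of whole-number read counts per gene for 18 libraries, which the authors made from single-end reads of stranded poly(A) libraries with no normalization. The submitters' processing notes name CASAVA, STAR 2.7.1a, DESeq2 1.28.1 and the build mm10, while the study's methods name TopHat, HTSeq and mm9. Which of these made the table, and the strand setting of the counting, are not given in the sources used here. Groups were taken from the labels. The replicates of a group were cultures of separate embryos. EV and RAS libraries of the same WT line were treated as independent in the fits with group as the only term. The p-values of those fits thus measure the spread between libraries, not that of the RAS effect within a line.

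Each series of 9 libraries was fitted with edgeR 4.0.16 in R 4.3.3 (TMM scaling, filterByExpr with a minimum count of 10, quasi-likelihood test, two-sided, group as the only term), with Benjamini-Hochberg adjustment over all genes tested and a threshold of 0.05. All adjusted p-values are from these fits unless DESeq2 (1.42.0) is named. The differences between series were fitted over 18 libraries. Intervals are 95%. Log2 CPM used a prior count of 2, and a fold against libraries without counts used a floor of 3 counts. The test with group as the only term was also run on simulated counts. These were drawn independently for each library, so that lines shared between groups were not covered. Total counts were 8319445 to 14402442 per library, and intervals and floors cover counting error only where no replicate spread enters. Symbols were found for 32589 of 55401 identifiers, which held 99.1% of counts. Per-kb levels used exon lengths of the NCBIM37 annotation. All replicate pairs differed beyond sampling noise (chi-square per degree of freedom 8.48 to 89.9).

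EV and RAS libraries of the same number are the same WT line by their labels. KO and WT lines of the same number were treated as pairs only in fits with the block and where libraries of the same number are compared. The log2 fold changes, intervals and adjusted p-values of KO against WT are otherwise from the fit without pairs. The paper describes littermates, but the labels do not give the litter of a number. Deviations from group means correlated by 0.68, 0.44 and 0.67 (RAS and EV) and 0.69, 0.39 and 0.62 (KO and WT) in the S6K1 series and by 0.37, 0.29 and 0.31 (RAS and EV) in the S6K1/S6K2 series.

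The members and lists were chosen with earlier results of these data known. The text names the 10 members, at most 4 called genes with the largest change per list and comparison, the 2 genes most alike each member (18 libraries, mean of at least 5 CPM; those of H19 are not reported here), and Rps6kb1, Rps6kb2 and Hras. Airn, Usp29, Dio3, Insr and Igf1r are outside that rule and were chosen after their values were seen. Alternatives were DESeq2, its size factors, no filter, the replicate block and leaving out each library.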

Additional observations from a re-analysis of the deposited data

Results flagged for a closer look

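The RAS effect on Peg3 went in opposite directions in the 2 series. Peg3 was lower with RAS in 3 of 3 lines of the S6K1 series and higher in 3 of 3 lines of the S6K1/S6K2 series, and the difference of the fitted effects was 1.44 on the log2 scale (S6K1/S6K2 series minus S6K1 series, SE 0.64). In edgeR's test of the difference the unadjusted p was 0.0399 and the adjusted p over all genes 0.384, so that it did not pass, and the adjusted p was 0.103 with the replicate block. The macrophage markers, with which Peg3 correlated at -0.80 after subtraction of group means, differed between lines in both series, and their part in this difference was not tested.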

How the results depend on the processing

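Mest and Grb10 were called in both comparisons of RAS with EV under every alternative, and Dlk1 in 11 of 11 fits of the S6K1 series but 6 of 12 of the S6K1/S6K2 series. Genes called in the RAS comparison of the S6K1 series numbered 5085 with the replicate block and 4411 with the line as replicate block in the 6 WT libraries. For KO against WT they numbered 63 with DESeq2, 108 with no filter and 583 with the block, and for DKO against WT 10, 11 and 8, where Igf2r turned to 0.025 with the block. Same-numbered DKO and WT libraries are not littermates, so that the numbers do not pair them. Their deviations correlated by 0.28, 0.45 and -0.03, beside 0.37, 0.29 and 0.31 for EV and RAS libraries of the same line. These correlations alone cannot decide on pairing, since libraries of unlike numbers were not set beside them. In the RAS comparison of the S6K1/S6K2 series 7 members were called with no filter and 6 with the line block. The share of all genes called in those same fits is not given here. These counts therefore do not show whether the members were called more often than other genes. The line block and the omission of both line 1 WT libraries were chosen after seeing the data, and with those libraries out Cdkn1c turned to 0.33 and Plagl1 to 0.15. The difference of the RAS effect gave 1 member and 143 genes with DESeq2, 1 and 204 with no filter, and 58 genes with the block. The replicate block changed no other call of a member than those of Dlk1, Igf2, Igf2r and Peg3. The cause of these shifts was not tested.

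With 1 library left out, log2 fold changes that changed sign, and counts, ranged as follows, while other log2 fold changes that did not pass also moved by over 1.5 times with the same sign, as did Dlk1 in the S6K1/S6K2 series. In the RAS comparison of the S6K1 series genes called ranged from 1043 to 1818, Igf2 from -1.34 to 0.84, H19 from -0.97 to 0.72 and Cdkn1c from -0.093 to 0.22. For KO against WT genes called ranged from 0 to 22, Dlk1 from -0.10 to 0.45, Peg3 from -0.010 to 0.74 and Grb10 from -0.11 to 0.14. In the RAS comparison of the S6K1/S6K2 series members called ranged from 2 (without WT EV replicate 1) to 5 (without WT EV replicate 3), genes called from 2050 to 4199, Cdkn1c from -1.58 to 0.43 and Meg3 from -0.024 to 0.13. For DKO against WT genes called ranged from 1 to 2, Igf2 from -0.083 to 0.50, Igf2r from -0.29 to 0.14, Cdkn1c from -0.072 to 0.12, Meg3 from -0.41 to 0.017, Peg3 from -0.24 to 0.26, Mest from -0.28 to 0.25 and Plagl1 from -0.10 to 0.36. The difference of the RAS effect gave 0 to 1 members (Mest, adjusted p = 0.0124 without WT EV replicate 3 of the S6K1/S6K2 series), 0 to 290 genes and -2.53 to 0.23 for Dlk1, and that of the loss effect -0.62 to 0.10 for Peg3.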
